A study of Mus musculus with 126 samples.

Results

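Very large and mid-size prostate tumors were compared to see which transcripts still differed once a tumor was established. The tumor weight in the sample labels, called primary tumor burden in the study, chose the tumors, and no expression value was used. Of 126 arrayed primary tumors, 19 weighed 8 g or more and are called very large here, and 35 weighed from 3 to 5 g and are called mid-size. The other 72 tumors were left out. All 54 tumors came from transgene-positive F2 males of a cross between TRAMP and NOD/ShiLtJ mice, 1 tumor per male, so each male carried its own mixture of both parental genomes. No group without the transgene and no treatment entered the comparison. Burden was 9.64 ± 1.54 g (SD, n = 19) in the very large tumors, from 8 to 14 g with a median of 9.06 g, and 4.10 ± 0.669 g (SD, n = 35) in the mid-size tumors, from 3.07 to 5 g with a median of 4.1 g. Distant metastasis was recorded in 15 of 19 males with a very large tumor (78.9%) and in 23 of 35 with a mid-size tumor (65.7%). Tumors were collected at an age limit or when humane endpoints were reached, and the labels do not give each male's age, so weight and age cannot be told apart here.

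TRAMP mice express SV40 T antigen from a probasin promoter in prostate epithelium. The antigen binds and inactivates the Rb and p53 proteins, and advanced tumors of the model are often neuroendocrine, with the secretory granule and synaptic genes of neurons and few of the junction and secretory genes of the prostate gland. A solid tumor that grows beyond its blood supply becomes poor in oxygen. Cells then stabilize the hypoxia-inducible factors, which raise glucose uptake, glycolysis and angiogenic signals, and lack of amino acids or a disturbed endoplasmic reticulum raises the stress genes under Atf4.

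Levels are log2 values of Affymetrix Mouse Gene 2.0 ST arrays, on which a difference of 1 is a 2-fold difference, and each gene is given by the probe set with its highest mean. The 19 very large tumors had high neuroendocrine and low gland genes, with a mean over 21 neuroendocrine genes from 8.96 to 9.81 and a mean over 14 prostate secretory and androgen genes from 5.62 to 6.17. Of the mid-size tumors, 1 stood apart from all others. This tumor of 4.9 g (replicate 34) had the lowest mean correlation with the other arrays (0.911, against a median of 0.975 in either class), and its means were 6.83 over the neuroendocrine genes and 8.69 over 23 mitosis genes. Without it the comparison below still called 0 probe sets. The mouse tag numbers in the sample titles also differed between the classes. Of the very large tumors 11 of 19 had a tag number under 800, and of the mid-size tumors 4 of 35. What the tag numbers follow is not stated in the labels, so differences are also given with the range of tag numbers (under 500, 500 to under 800, 800 to under 1000, 1000 on) as a block. Nothing in the labels names separate litters or array batches, and p-values measure the spread between these males.

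No transcript passed the threshold between very large and mid-size tumors. Of 23507 probe sets tested with limma, 0 (0%) had a Benjamini-Hochberg adjusted p under 0.05, and the smallest adjusted p was 0.462. At an unadjusted p under 0.05 there were 1119 (4.76%), with 2.59% higher and 2.17% lower in very large tumors. The methods' t-test and the Wilcoxon rank sum test likewise called 0, with 1111 and 1256 probe sets at an unadjusted p under 0.05. In simulated data of independent normal values the limma fit recovered 36% of differences of 1 SD and 90% of those of 1.5 SD. The differences were small for most transcripts. The 95% interval of the difference lay within 1.25-fold in either direction for 79.3% of probe sets, within 1.5-fold for 94.8% and within 2-fold for 99.1%. Estimated differences were above 1.5-fold for 67 probe sets and above 2-fold for 6. Over all probe sets 50.9% of differences were above 0. In bulk tumors, more cells of a kind and more RNA per cell cannot be told apart. Since none passed, the genes below were ordered by their unadjusted p within each direction, and their values are given as measured differences that did not pass the test.

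Among the genes higher in very large tumors, Muc2 had the smallest p. Muc2 encodes the gel-forming mucin of the intestine. Its level ranged from 5.90 to 8.34 in very large tumors, with a median of 7.30, and from 5.12 to 8.44 in mid-size tumors, with a median of 5.97. The classes overlapped, but 18 of 19 very large tumors lay above the mid-size median, a count that 18 of the 23507 probe sets reached or passed. The difference was 0.98 (SE 0.217), or 1.98-fold, with p = 3.31e-05 and an adjusted p of 0.462 in limma. It was 0.85 in tumors with tags of 800 or more and 1.28 in those with tags under 800, and a second probe set of Muc2 differed by 0.34 (p = 0.00657).

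Gabrg1, which encodes a gamma subunit of the GABA-A receptor, the chloride channel opened by the neurotransmitter GABA, showed the largest difference of any probe set. It ranged from 4.33 to 8.82 in very large tumors, with a median of 6.84, and from 4.05 to 9.17 in mid-size tumors, with a median of 4.83. Most mid-size tumors were near the low end, 17 of 19 very large tumors lay above their median, and both classes held tumors at either extreme. The difference was 1.44 (SE 0.352), or 2.72-fold, with p = 0.000135 and an adjusted p of 0.792. With tags of 800 or more it was 2.01, and with tags under 800 it was 0.30. Gabrg1 lies on chromosome 5 in a cluster of 4 GABA-A receptor subunit genes (GRCm38.p6). Its neighbour Gabra2 differed by 0.87 (p = 0.0033), Gabra4 by 0.70 (p = 0.0406) and Gabrb1 by 0.28 (p = 0.23). With the tag range as a block these differences were 0.99, 1.07 and 0.56. Gnpda2 and Commd8, measured genes outside the cluster on either side, differed by 0.08 and 0.06, and by 0.14 and 0.08 with the block. Guf1, beyond Gnpda2, differed by 0.12 (p = 0.127), and by 0.19 with the block (p = 0.0279). Across the 54 tumors, which share 1 platform and normalization, Pearson's r between Gabrg1 and Gabra2 was 0.864, and between Gabra4 and Gabrb1 0.748.

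Ndrg1, a hypoxia- and stress-induced gene that limits metastasis in several cancers, ranged from 8.71 to 10.30 in very large tumors (median 9.56) and from 8.27 to 10.17 in mid-size tumors (median 9.11). The ranges overlapped over most of their length, and 17 of 19 very large tumors were above the mid-size median. The difference was 0.45 (SE 0.119), or 1.37-fold, with p = 0.000333 and an adjusted p of 0.951, and it was 0.30 with the tag range as a block. A second probe set of Ndrg1 differed by 0.11 (p = 0.118). Rasl11b, a small GTPase related to Ras, was 8.08 ± 0.547 in very large and 7.45 ± 0.675 in mid-size tumors (SD), a difference of 0.63 (p = 0.000729). Lhfpl2 differed by 0.31, and the serotonin receptor gene Htr2a by 0.19. For Htr2a, 5 very large tumors lay above the highest mid-size tumor. The aldehyde dehydrogenase gene Aldh8a1 differed by 0.17 and Lrrc34 by 0.12, both at low levels. The ribosomal protein genes Rps28 and Rpl28 differed by 0.33 and 0.14, with 16 and 18 of 19 very large tumors above the mid-size median, but a second probe set of Rps28 differed by 0.08 (p = 0.265).

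Among the genes lower in very large tumors, Dpt had the smallest p. It encodes dermatopontin, a small protein of the collagen matrix. Its level ranged from 5.02 to 8.15 in very large tumors, with a median of 6.83, and from 5.91 to 9.80 in mid-size tumors, with a median of 7.63. The lower parts of both ranges overlapped, while 10 of 35 mid-size tumors lay above every very large tumor. The difference was −0.99 (SE 0.239), with mid-size tumors 1.98-fold higher, p = 0.000121 and an adjusted p of 0.792. Ltbp4, a latent TGF-beta binding protein of elastic fibers, ranged from 6.71 to 8.78 in very large tumors (median 7.93) and from 6.91 to 9.54 in mid-size tumors (median 8.71). Here 18 of 19 very large tumors were at or below the mid-size median, and 13 mid-size tumors lay above every very large one. The difference was −0.57 (SE 0.152, p = 0.000416), and −0.67 with the tag range as a block. Sspn, which encodes sarcospan of the dystrophin complex, differed by −0.27 at one probe set (p = 0.000751) and by −0.01 at another (p = 0.801).

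Tmem30b and BC064078 had the largest differences in this direction. Tmem30b encodes a chaperone of phospholipid flippases that is found mainly in epithelia. It ranged from 5.42 to 9.95 in very large tumors (median 6.69) and from 5.99 to 11.13 in mid-size tumors (median 8.31). Low and high tumors occurred in both classes, with 4 of 19 very large tumors above the mid-size median. The difference was −1.36 (SE 0.377, p = 0.000669, adjusted p = 0.951 in limma), with mid-size tumors 2.57-fold higher. For BC064078, a transcript without an assigned role here, the medians were 8.08 and 9.89, and the difference was −1.20 (SE 0.337, p = 0.000804). The nuclear receptor coactivator gene Ncoa3 differed by −0.27, with 1 of 19 very large tumors above the mid-size median. Tmtc2, a mannosyltransferase of cadherins, differed by −0.56, Mdp1, a phosphatase, by −0.24, Ldlrad3 by −0.23 and Abi1, a regulator of actin branching, by −0.14. All 20 genes kept their direction with the tag range as a block and in tumors of either tag range alone.

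**Figure D1:**
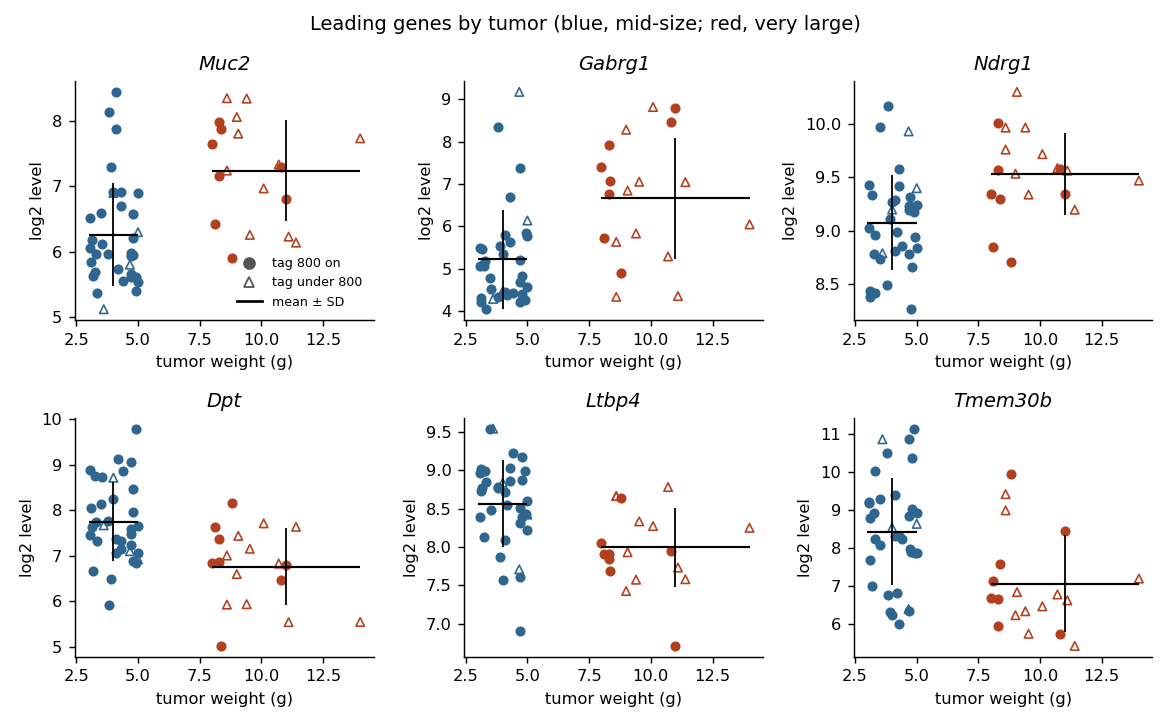
Log2 level (y axis) against tumor weight in g (x axis) in the 35 mid-size (blue) and 19 very large tumors (red), with filled circles for tags of 800 or more, open triangles for tags under 800, and black lines for the class mean ± SD. Muc2, Gabrg1 and Ndrg1 are shifted upward and Dpt, Ltbp4 and Tmem30b downward in very large tumors, and the classes overlap for every gene.

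Glycolysis and hypoxia genes were the group with the most members on one side. Of 24 members tested, 10 were higher in very large tumors at an unadjusted p under 0.05 and 0 were lower, against 2.59% and 2.17% of all probe sets. No member passed the adjusted threshold. The differences of 23 of 24 members were above 0, and their median was 0.22, against a median of 0.00188 over all probe sets. The mean over the list ranged from 8.40 to 9.72 in very large tumors (median 9.10) and from 8.26 to 9.53 in mid-size tumors (median 8.76), so the classes overlapped, with 14 of 19 very large tumors above the mid-size median.

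By role, glucose entry came first. Slc2a1, the glucose transporter GLUT1, ranged from 8.05 to 10.27 in very large tumors (median 9.38) and from 7.78 to 10.39 in mid-size tumors (median 8.94), a difference of 0.39 (SE 0.167, p = 0.0248). Hk2, the inducible hexokinase, differed by 0.44 (SE 0.199, p = 0.0298), while Hk1, the housekeeping hexokinase, differed by −0.02 and was the 1 member below 0. Of the later enzymes, Pgk1, phosphoglycerate kinase, ranged from 11.51 to 12.45 (median 12.06) in very large and from 11.15 to 12.24 (median 11.77) in mid-size tumors. The ranges overlapped, with 5 very large tumors above the highest mid-size tumor, and the difference was 0.23 (SE 0.0768, p = 0.00465). Pgam1 differed by 0.23 (p = 0.0369), the pyruvate kinase gene Pkm by 0.15 (p = 0.0156) and the lactate dehydrogenase gene Ldha by 0.22 (p = 0.0138). Pdk1, which blocks entry of pyruvate into the mitochondrion, differed by 0.32 (p = 0.0227).

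Vegfa, the main angiogenic growth factor, ranged from 9.21 to 11.36 in very large tumors (median 10.36) and from 8.82 to 11.09 in mid-size tumors (median 9.79). The ranges overlapped widely, with 16 of 19 very large tumors above the mid-size median, and the difference was 0.43 (SE 0.151), or 1.35-fold (p = 0.00572). Bnip3, which drives removal of mitochondria under hypoxia, differed by 0.37 (SE 0.179, p = 0.0438). Egln3, a prolyl hydroxylase that marks hypoxia-inducible factors for decay and is itself their target, had the largest difference of the list at 0.48 but varied widely (SE 0.242, p = 0.0548). The lactate exporter Slc16a3 and the collagen prolyl hydroxylase P4ha1 differed by 0.26 and 0.27 (p = 0.0525 and 0.079). Car9, a carbonic anhydrase used as a marker of hypoxia, differed by 0.13 (p = 0.0924), and Adm, adrenomedullin, by 0.12 (p = 0.607).

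The count of 10 members moved with the tumors compared. With the tag range as a block it was 2 (1.69% of all probe sets were higher at an unadjusted p under 0.05 in that fit), with tags of 800 or more alone 0 (1.33%), with tags under 800 alone 3 (1.56%), with metastatic males alone 3 (1.94%), and with mid-size tumors of 3.5 to 4.5 g it was 1 (1.94%), with 1 member lower. The median stayed above 0 in these fits, at 0.15, 0.10, 0.32, 0.17 and 0.17. Without 1 very large tumor (replicate 14) the count was 6. Among tumors with tags of 800 or more, the mean over the list was 8.95 ± 0.404 (SD) in 8 very large and 8.83 ± 0.284 (SD) in 31 mid-size tumors. Among tumors with tags under 800, it was 9.13 ± 0.295 (SD) in 11 very large and 8.83 ± 0.478 (SD) in 4 mid-size tumors. The part of the tag range in the difference was otherwise not tested.

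**Figure D2:**
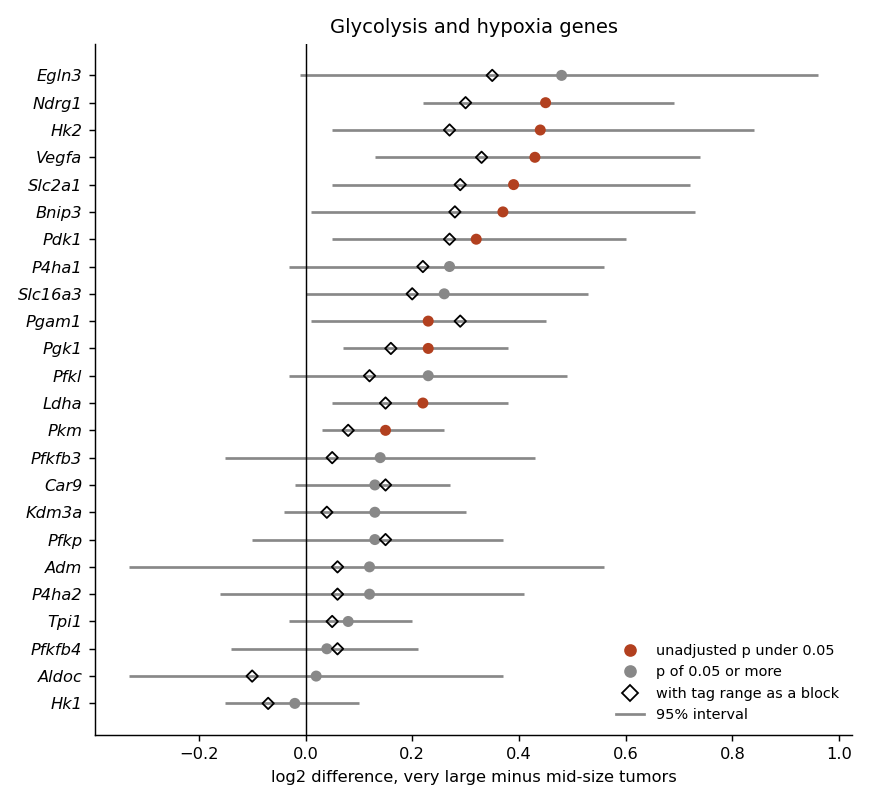
Log2 difference between very large and mid-size tumors (x axis) for each of 24 glycolysis and hypoxia genes, with its 95% interval as a line. Red points are the 10 members at an unadjusted p under 0.05, and open diamonds are the differences with the tag range as a block, most of which lie closer to 0.

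Hypoxia-inducible factors bind DNA at the core ACGTG, which the promoters of several members carry. The 250 bases before the annotated start of each gene in RefSeq (GRCm38.p6) were searched for ACGTG on both strands, that is ACGTG or CACGT, and overlapping matches were counted. The pair of overlapping matches in CACGTG is also the E-box bound by Myc and related factors. Of the 23 members with a promoter in the table, 14 held a match in at least 1 window, and of the 9 with an unadjusted p under 0.05, 8 did, against 18.5% of 27025 genes. Among these 8, Vegfa and Pkm held 1 match each, only in the window of a second start further into the gene. Many members were put on the list as known hypoxia targets, and a match is not a binding site. The windows of Pgk1, which had the smallest p of the members in the table, of Ldha, which had the most matches, and of Bnip3 are shown with matches in capitals.
Pgk1 promoter, chrX:106186850-106187099, plus strand: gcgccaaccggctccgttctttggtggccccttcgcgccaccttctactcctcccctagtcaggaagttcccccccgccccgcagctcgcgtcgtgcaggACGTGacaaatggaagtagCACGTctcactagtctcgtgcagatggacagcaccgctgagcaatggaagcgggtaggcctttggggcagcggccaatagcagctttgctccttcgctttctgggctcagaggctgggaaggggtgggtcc
Ldha promoter, chr7:46845554-46845803, plus strand: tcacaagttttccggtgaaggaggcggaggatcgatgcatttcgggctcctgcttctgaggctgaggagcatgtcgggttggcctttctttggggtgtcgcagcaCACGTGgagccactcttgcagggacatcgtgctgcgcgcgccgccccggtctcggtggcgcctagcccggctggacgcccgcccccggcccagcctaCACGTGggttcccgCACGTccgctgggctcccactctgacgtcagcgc
Bnip3 promoter, chr7:138909507-138909756, minus strand: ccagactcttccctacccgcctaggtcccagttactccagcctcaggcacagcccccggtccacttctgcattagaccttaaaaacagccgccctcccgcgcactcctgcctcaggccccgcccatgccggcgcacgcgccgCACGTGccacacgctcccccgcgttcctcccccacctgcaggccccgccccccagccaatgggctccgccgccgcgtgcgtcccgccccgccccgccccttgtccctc
Ldha held 5 matches in this window and 0 in the window of a second start, Pgk1 2 that do not overlap, and Bnip3 2 in 1 E-box.

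Stress response genes had a smaller shift in the same direction. Of 13 tested, 4 were higher at an unadjusted p under 0.05 (2.59% of all probe sets) and 0 lower, 11 differences were above 0, and their median was 0.15. Ddit4, an inhibitor of mTOR signaling induced by hypoxia, ranged from 7.68 to 9.75 in very large tumors (median 8.83) and from 7.20 to 9.80 in mid-size tumors (median 8.37), a difference of 0.41 (SE 0.159, p = 0.0132). Atf4, the transcription factor of the amino acid response, ranged from 8.40 to 8.92 (median 8.62) and from 7.75 to 8.94 (median 8.48). No very large tumor was in the lowest part of the mid-size range, which held 10 mid-size tumors, and the difference was 0.15 (SE 0.0645, p = 0.0212). Its targets Chac1, a glutathione-degrading enzyme, and Asns, asparagine synthetase, differed by 0.28 and 0.23 (p = 0.0213 and 0.0523), and Hmox1, heme oxygenase, by 0.51 (p = 0.0279). Ddit3 and Trib3, which act in the same pathway, differed by 0.13 and 0.11, and the endoplasmic reticulum genes Hspa5 and Xbp1 by 0.04 and −0.08. With the tag range as a block 2 members were higher at p under 0.05 (1.69% of all probe sets). With tags of 800 or more alone 0 were (1.33%). Of 13 immediate early genes, which respond to handling as well as to growth factors, 1 was higher at p under 0.05 (2.59% of all probe sets). This was Atf3, by 0.32 (p = 0.012), and the list median was 0.09. Under the tag block 0 were at p under 0.05, 4 of 13 differences were above 0 and the median was −0.06, and with tags under 800 alone the median was −0.25.

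Genes of cell division differed little. Of 23 mitosis genes and 24 DNA replication genes, 0 had an unadjusted p under 0.05 (4.76% of all probe sets in either direction), their median differences were 0.04 and 0.05, and the 95% interval of every one of them lay within 1.5-fold. The mean over the mitosis genes ranged from 10.34 to 10.75 in very large tumors and from 8.69 to 10.83 in mid-size tumors, the tumor at 8.69 being the one that stood apart. All 19 oxidative phosphorylation genes also had an interval within 1.5-fold, with a median difference of 0.04. Of 19 genes of the Rb, E2f, p53 and Myc pathways, 0 had p under 0.05, with Myc at a difference of 0.29 (p = 0.132). Of 27 replication-dependent histone genes, 22 had a difference above 0, with a median of 0.14. At p under 0.05, 2 were higher (H4f16 by 0.27 and H2bc14 by 0.14), against 2.59% of all probe sets. Under the tag block 0 histone genes were at p under 0.05, and the median was 0.02.

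The neuroendocrine genes had no shared direction. Of 21 neuroendocrine genes, which encode granins, prohormone convertases and synaptic proteins, 15 differences were above 0 and 6 below, with a median of 0.06 that was −0.01 with array weights and −0.03 without the tumor that stood apart, and 16 of 21 intervals lay within 1.5-fold. Uchl1, a neuronal ubiquitin hydrolase, was the 1 of 21 members at p under 0.05 (−0.21, p = 0.0432), a share close to the 4.76% of all probe sets in either direction. The widest differences were Pcsk1 at −0.74 and Stmn2 at 0.62. Under the tag block Uchl1 differed by −0.13 (p = 0.262), and the 1 member at p under 0.05 was Stmn2, a neuronal microtubule regulator, at 1.08 (p = 0.034). With mid-size tumors of 3.5 to 4.5 g, 5 members were lower and 0 higher at p under 0.05, and the list median was −0.12. In that fit 923 of all 23507 probe sets were lower and 457 higher at p under 0.05. Of 24 proneural transcription factors 1 was lower at p under 0.05, Onecut2, against 2.17% of all probe sets, and 0 were higher. The median of this list was 0.02. Onecut2, a factor that promotes neuroendocrine prostate cancer in humans, ranged from 6.08 to 7.23 in very large tumors (median 6.55) and from 5.78 to 7.64 in mid-size tumors (median 6.85), with 6 mid-size tumors above every very large one and a difference of −0.27 (SE 0.113, p = 0.0199), or −0.24 with the tag range as a block (p = 0.0776). Of 20 Notch pathway genes, all had an interval within 1.5-fold. At p under 0.05, 1 was lower (2.17% of all probe sets) and 0 were higher. This was Heyl, a Notch target of vessel walls, which differed by −0.15 (p = 0.012).

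Epithelial junction genes were low in most tumors of both classes and high in a few mid-size tumors. Of 21 epithelial junction genes 20 had a difference below 0, with a median of −0.16 (−0.13 without the tumor that stood apart), but 1 was at p under 0.05, against 2.17% of all probe sets. This was Grhl2, a transcription factor that keeps epithelial junctions, which ranged from 5.05 to 7.55 in very large tumors (median 5.65) and from 4.94 to 9.58 in mid-size tumors (median 6.36), a difference of −0.56 (SE 0.25, p = 0.0299), or −0.36 with the tag range as a block (p = 0.207). The list median was −0.03 with tags under 800 alone, where 10 of 21 differences were above 0, −0.06 with mid-size tumors of 3.5 to 4.5 g, where 7 were, and −0.07 with array weights. The mean over the list ranged from 6.07 to 6.81 in very large tumors and from 6.09 to 9.43 in mid-size tumors, with medians of 6.30 and 6.39. The medians were thus close, and the upper end of the mid-size class came from few tumors, of which 2 reached 8.84 and 9.43. The tumor at 9.43 was the one with low neuroendocrine and mitosis genes, and the tumor at 8.84 (4.7 g, replicate 31) had neuroendocrine and mitosis means of 9.27 and 10.63. Among junction genes the median SD was 0.295 in very large and 0.909 in mid-size tumors, against 0.226 and 0.245 over all probe sets. The mid-size SD includes the tumors at 8.84 and 9.43, and no SD without them is given here. In the test of spread 1 of 21 was lower in very large tumors at p under 0.05, against 1.73% of all probe sets, and 0 passed the adjusted threshold.

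**Figure D3:**
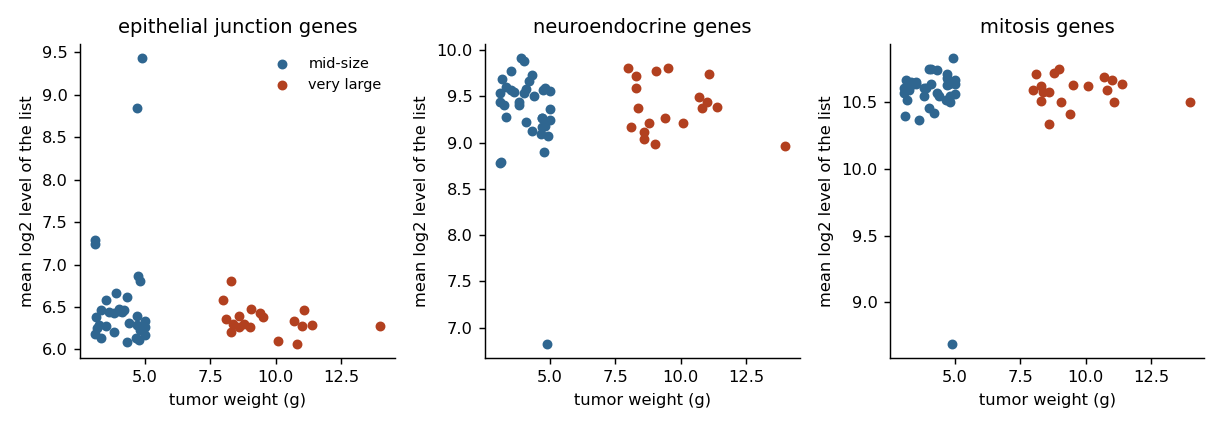
Mean log2 level over 21 epithelial junction genes, 21 neuroendocrine genes and 23 mitosis genes (y axes) against tumor weight in g (x axis), 1 point per tumor, blue for mid-size and red for very large. A mid-size tumor of 4.9 g is highest for the first list at 9.43 and lowest for the other 2 at 6.83 and 8.69.

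No member of 9 keratin and basal genes, 14 prostate secretory and androgen genes or 5 uroplakin genes was at p under 0.05, and their median differences were −0.18, −0.25 and −0.20. With mid-size tumors of 3.5 to 4.5 g these medians were −0.06, −0.07 and −0.06, and with array weights −0.07, −0.15 and −0.06. They were −0.04, −0.08 and −0.11 with tags under 800 alone, and −0.16, −0.18 and −0.20 with the tag range as a block. With metastatic males alone they were −0.26, −0.23 and −0.29. The median SD was 0.329, 0.413 and 0.249 in very large tumors and 0.752, 0.843 and 0.84 in mid-size tumors. The mid-size SDs include the tumor that stood apart, and none without it is given here. For the uroplakins, the plaque proteins of the bladder lining, the list mean reached 6.25 at most in very large tumors and 11.16 in mid-size tumors. The value of 11.16 belonged to the tumor that stood apart (replicate 34), and the next highest mid-size tumor was at 7.33. This tumor was also the highest for the keratins at 8.82 and for the secretory genes at 8.45, ahead of 6.87 and 7.58. Seminal vesicle secretory genes varied widely in both classes, with list means from 4.11 to 10.05 and from 4.07 to 10.44. Adipocyte and skeletal muscle genes had 0 members at p under 0.05.

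Most interferon and antigen presentation genes had differences below 0. Of 18 interferon response genes 13 did, 3 were lower at p under 0.05 (2.17% of all probe sets) and 0 higher, with a median of −0.10. Oasl2, an interferon-induced antiviral gene, ranged from 6.05 to 7.85 in very large tumors (median 6.82) and from 5.98 to 10.51 in mid-size tumors (median 7.59). Low levels occurred in both classes, while 13 of 35 mid-size tumors lay above every very large tumor, and the difference was −0.71 (SE 0.245, p = 0.0055). Ifit1 differed by −0.44 (SE 0.162, p = 0.00872) and the guanylate-binding protein gene Gbp3 by −0.20 (p = 0.0442). Of 15 antigen presentation genes 14 had a difference below 0, with a median of −0.11. At p under 0.05, 1 was lower, Psmb9, against 2.17% of all probe sets, and 0 were higher. Psmb9, a subunit of the immunoproteasome, differed by −0.22 (p = 0.0353) and its partner Psmb8 by −0.25 (p = 0.061). The class II genes H2-Ab1 and H2-Aa differed by −0.29 and −0.25 (p = 0.146 and 0.188), and H2-K1 by −0.02. The mean over the list was above the highest very large tumor (7.50) in 9 of 35 mid-size tumors. The tumor that stood apart (replicate 34) was the highest for this list at 8.47 and for the interferon genes at 7.59. Without it the median of the antigen presentation genes was −0.08. With the tag range as a block no member of either list was at p under 0.05, and the medians were −0.07 and −0.07.

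Markers of immune, vascular and stromal cells had few members past an unadjusted p of 0.05, which 2.59% of all probe sets passed as higher and 2.17% as lower. A single member is the smallest count above 0 that a list can show, and no list was tested against that share. Of 17 macrophage genes 0 were at p under 0.05 and the list mean ranged from 6.47 to 8.00 in very large and from 6.37 to 8.28 in mid-size tumors. Of 17 T and NK cell genes 1 was lower, Cd4 by −0.21 (p = 0.0299), with 14 mid-size tumors above every very large one and a difference of −0.12 with the tag range as a block (p = 0.249), and list means ranged from 5.03 to 5.30 and from 5.08 to 5.55. B cell and neutrophil genes had 0 of 9 and 0 of 12 members at p under 0.05. Their list means ranged from 4.73 to 5.15 and from 4.71 to 5.37 in very large tumors, and from 4.77 to 5.49 and from 4.70 to 5.23 in mid-size tumors. The T and NK, B cell and neutrophil means all lay below the array medians (5.84 to 6.05), and such low levels limit what these lists can show. Among 19 endothelial genes Egfl7, an angiogenic matrix protein of vessels, was higher by 0.14 (p = 0.0133), the median was 0.04, and list means ranged from 6.0 to 7.49 and from 6.46 to 7.30. Of 22 collagen and matrix genes 1 was higher, Thbs1, thrombospondin, by 0.46 (p = 0.0455), and 1 lower, Col14a1, by −0.36 (p = 0.0237), with a median of −0.02. Dpt and Ltbp4 are not on that list. List means of matrix genes ranged from 6.50 to 8.73 and from 6.83 to 8.54, and those of 15 smooth muscle and pericyte genes from 6.28 to 7.56 and from 6.40 to 9.28, with 0 members at p under 0.05. The value of 9.28 was again replicate 34, and the next highest mid-size tumor was at 7.47. Of the red blood cell genes 2 were tested, and Slc4a1, the anion exchanger of red cells, was higher by 0.23 (p = 0.0302). Under the tag block the differences of Egfl7, Thbs1, Col14a1 and Slc4a1 were 0.12, 0.28, −0.17 and 0.11, and none of these 4 was at p under 0.05 (p = 0.0659, 0.286, 0.328 and 0.337). The part of cell content in the differences of single genes was not tested.

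**Figure D4:**
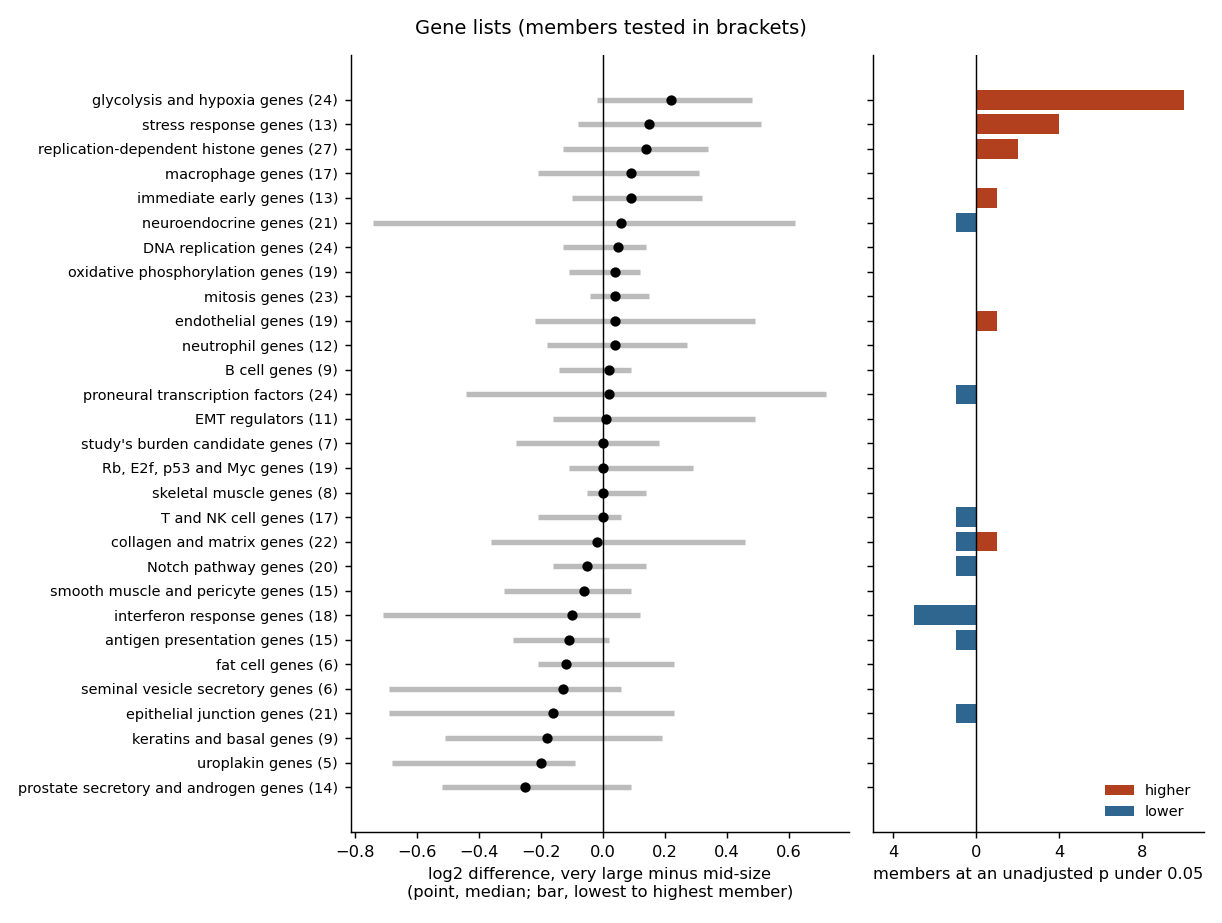
Gene lists with at least 5 members tested, ordered by median difference. On the left, points are the median log2 difference (very large minus mid-size) and grey bars run from the lowest to the highest member, and on the right, bars count members higher (red) or lower (blue) at an unadjusted p under 0.05. Glycolysis and hypoxia genes have the highest median, 0.22, and 10 members higher, and prostate secretory and androgen genes the lowest median, −0.25, with 0 members.

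The genes that the study put forward as candidates for primary tumor burden were looked up as well. They were chosen by the study from these tumors among others, so they are no independent set. Of 7 measured under their own symbol, 0 were at p under 0.05. The linker histone gene H1f1 differed by 0.18 (SE 0.207, p = 0.396), H4c1 by 0.16 (p = 0.142), the chemokine gene Cxcl14 by 0.16 (SE 0.161, p = 0.31) and Gpld1, a phospholipase that releases anchored proteins, by −0.28 (p = 0.165). Zfp322a differed by −0.08 (SE 0.0905), with levels from 7.00 to 8.45 and from 7.04 to 8.32. The 95% intervals of 2 others, from −0.11 to 0.10 for Caml and from −0.25 to 0.24 for Pgbd1, both lay within 1.25-fold in either direction. The study correlated levels with burden over its arrayed tumors, of which 72, from 0.1 to 7.8 g, were left out here. Cxcl14 and Gpld1 correlated negatively there, and H1f1, H4c1, Zfp322a, Caml and Pgbd1 positively. The differences here had the same sign for H1f1, H4c1 and Gpld1 and the opposite sign for Cxcl14 and Zfp322a. As no difference was at p under 0.05, these signs cannot show accord or conflict with the study.

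Whether the difference between size classes depended on distant metastasis was asked with an interaction term in limma. Of 23507 probe sets 0 (0%) passed, and 373 (1.59%) had an unadjusted p under 0.05, with 0.813% above and 0.774% below 0. Only 4 very large tumors came from males without metastasis, which limits this test, and 21% of simulated interactions of 2 SD were recovered. Flt4, the receptor of lymphatic vessels, had the smallest p of the 6 genes named by rule (p = 0.0014). Its mean was 6.24 in very large and 6.09 in mid-size tumors of males with metastasis, and 5.92 and 6.21 in males without. Kdm5d, a histone demethylase on the Y chromosome, differed by −0.08 with metastasis and −1.74 without (p = 0.00168), and 2 of the 4 very large tumors behind the latter value had levels of 4.82 and 4.83. In the other direction were Rgs9bp (−0.22 with and 0.30 without metastasis, p = 0.00154) and Supt7l (−0.14 and 0.32, p = 0.00156).

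The spread among tumors of a class was compared through each tumor's absolute deviation from its class median. Of 23507 probe sets 0 (0%) passed, 715 (3.04%) had an unadjusted p under 0.05, of which 309 (1.31%) had a larger and 406 (1.73%) a smaller spread in very large tumors, and the SD was larger in mid-size tumors for 60.1%. The mid-size class includes the tumor that stood apart (replicate 34), and no comparison of spread without it is given here. With the tag range as a block 178 had a larger and 653 a smaller spread at p under 0.05, and 0 passed. In simulated data, with the larger SD always in the very large class, the spread fit recovered 16% of SD ratios of 2. Dusp5, a phosphatase of the MAP kinase Erk, was among the 3 of smallest p with a larger spread in very large tumors, with levels from 5.67 to 6.97 (SD 0.385) against 6.01 to 6.92 (SD 0.196) and p = 0.00121. Lefty1, an antagonist of Nodal signaling, was among the 3 with a smaller spread, from 5.61 to 5.93 (SD 0.0875) against 5.09 to 6.08 (SD 0.239), with p = 0.00233.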

How the data were processed

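RNA of 126 tumors was hybridised to Mouse Gene 2.0 ST arrays (Affymetrix), each from another male. The authors made the deposited log2 values from scanned intensities in Partek by RMA, which corrects background, normalizes quantiles and summarizes probes. Quantile normalization removes differences in overall signal, so levels are relative to the array. No version of Partek is given in the sources used here. The value table has 41345 probe sets, of which 23525 had 1 gene symbol in the platform annotation, 1816 several and 16004 none here. Values ranged from 1.94 to 14.39 and array medians from 5.84 to 6.05.

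Probe sets with a symbol and a mean over 126 arrays not below the 10th percentile (log2 3.42), the filter of the study's methods, were tested, 23507 in all. For the 54 tumors a linear model per probe set, very large minus mid-size and without covariates, was run in R 4.3.3 with limma 3.58.1 (functions lmFit, eBayes), with Benjamini-Hochberg adjustment at 0.05. All p-values are two-sided. The interaction and the spread (absolute deviations from the class median) were fitted likewise. The fits were tested on simulated data, drawn as independent normal values with the mean and SD of each probe set. For class differences 50 probe sets were changed per size, and for the interaction and the spread 100. The simulated spread was enlarged in the very large class only. Real values need not be independent or normal, so recovery in these tumors may differ. Of simulated class differences, 8% were recovered at 0.75 SD, 36% at 1 SD and 90% at 1.5 SD. For the interaction 21% were recovered at 2 SD and 71% at 3 SD. For the spread 16% were recovered at an SD ratio of 2 and 75% at 3. Calls of 0 therefore leave room for differences that the fits seldom recover. Tables and figures used Python 3.11.15, pandas 2.3.3 and matplotlib 3.10.9. The number of arrays limits the precision.

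Genes named were the 10 of smallest p in either direction, up to 3 members per list with an unadjusted p under 0.05, the study's candidates, and up to 3 genes per direction of the interaction and of the spread. Other members named with their values, the GABA-A receptor cluster and the Y-linked genes were picked after their values were seen. Of 545 genes on 30 lists 460 were tested. The members and lists were chosen with earlier results of these data known. Lists were described by counts and medians, with no test of a list. Promoters came from RefSeq. Alternatives were other tests, filters, normalizations, array weights, covariates, class limits and subsets of tumors, and leaving out each tumor. Both fits within a range of tags, and the list results under every alternative, were added after the data were seen.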

Additional observations from a re-analysis of the deposited data

How the results depend on the processing

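No probe set had an adjusted p under 0.05 under any of 17 alternatives to the main comparison (limma, the methods' t-test or the Wilcoxon test) or without any 1 of the 54 tumors, where the smallest adjusted p was 0.0844 (without a mid-size tumor, replicate 26). The share at an unadjusted p under 0.05, 4.76%, was 2.41% with tags of 800 or more alone and ranged from 4.1% to 6.02% without 1 tumor. For glycolysis and hypoxia genes the count of 10 members higher was 2 with the tag range as a block, 3 with metastatic males alone, 1 with mid-size tumors of 3.5 to 4.5 g, 0 with tags of 800 or more and 3 with tags under 800, and from 6 (without very large replicate 14) to 14 without 1 tumor. For stress response genes the count of 4 was 2, 2, 1, 0 and 1 under the same alternatives and from 3 to 5 without 1 tumor. The subsets hold fewer tumors, and the cause was otherwise not tested. The median difference of neuroendocrine genes, 0.06, was −0.01 with array weights, −0.12 with mid-size tumors of 3.5 to 4.5 g, −0.04 and −0.01 with the epithelial or neuroendocrine mean as a covariate, −0.09 with tags under 800 and from −0.03 to 0.08 without 1 tumor, the lowest without mid-size replicate 34. In the spread comparison 3.04% of probe sets were at an unadjusted p under 0.05 with deviations from the class median and 5.11% with deviations from the class mean. The 20 leading genes kept their direction in all 339 values under these alternatives and without any 1 tumor, and the medians of the glycolysis and hypoxia, stress response, antigen presentation and epithelial junction lists kept theirs. No alternative moved the median of all differences by more than 0.00719. No paired analysis was possible because each tumor came from another male and belonged to 1 size class. Age, litter and array batch were not analysed here, and the signal of a probe set does not give a depth.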

Other observations

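Besides Gabrg1, Tmem30b and BC064078, 3 probe sets had an estimated difference above 2-fold, none past the threshold in limma, and they were chosen for that size. A probe set shared by the beta-globin genes Hbb-b1, Hbb-b2 and Hbb-bs, which encode the oxygen carrier of red cells, was 5.95 ± 1.41 in very large and 4.91 ± 1.07 in mid-size tumors (SD), a difference of 1.04 (SE 0.333, p = 0.00296, adjusted p = 0.951). Calcr, the calcitonin receptor, was 7.73 ± 1.96 and 6.51 ± 1.40, a difference of 1.22 (SE 0.448, p = 0.00893). Dsc3, a desmosomal cadherin, was 7.41 ± 2.43 and 6.34 ± 1.98, a difference of 1.08 (SE 0.596, p = 0.0762), and its SD was large in both classes.

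Kdm5d, which the interaction with distant metastasis brought up, was low in a few tumors of these males. It was 4.82 and 4.83 in very large tumors of 9.06 and 9.53 g (replicates 2 and 3), and from 6.21 to 9.28 with a median of 8.66 in the other 52. The Y-linked genes Uty and Eif2s3y were at 8.94 and 9.03 in the first of these tumors and at 9.37 and 9.47 in the second, near their medians of 9.36 and 9.39. In 3 further tumors all 3 genes were low together. Kdm5d, Uty and Eif2s3y were at 6.21, 6.92 and 6.99 in a very large tumor of 10.7 g, at 6.86, 7.66 and 7.72 in a mid-size tumor of 4.18 g, and at 7.48, 8.03 and 8.27 in a mid-size tumor of 4.7 g.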
